A study of Mus musculus with 6 samples.

Results

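The regions described here are the places where chromatin was open in E14 mouse embryonic stem cells 48 h after the medium 2iL was withdrawn, set against the places where it was open in 2iL. They were chosen by position. Any 48 h and 2iL intervals sharing 1 bp or more were joined, which gave 118122 regions, of 131410 in all when the 96 h list of the series is joined in as well. A region with intervals of the 48 h list alone is called gained (27647 regions), one with intervals of the 2iL list alone is called lost (29998 regions), and one with intervals of both is called shared (60477 regions). The assay was ATAC-seq, which reads out DNA that a transposase can reach and cut. The 48 h cells had spent 48 h in N2B27, a serum-free basal medium, after its 2iL additives were taken away. The 2iL cells were in N2B27 with CHIR99021, an inhibitor of the kinase GSK3, PD0325901, an inhibitor of the kinase MEK, and the cytokine LIF. E14 is an established cell line, and both groups were grown from it. Each group had 2 samples, and the labels do not say whether they came from separate cultures.

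The authors deposited 1 peak list for each group, made for both of its samples together, so there was no spread between replicates and no test between 48 h and 2iL. The 48 h list held 88810 intervals and the 2iL list 91228. The background recovered from the lists' own values, which follows sequencing depth, was 15.2 tags at 48 h and 14.2 in 2iL. A peak list says whether a place passed the authors' threshold in pooled libraries, and a gained or lost region may have had signal below that threshold in the other list. The lists did not end at the same floor. The lowest p at an interval's top summit, as −log10, was 7.06 at 48 h, 8.53 in 2iL and 3.87 at 96 h. A weak 48 h region could thus be called gained with a −log10 p below that of every listed 2iL interval. Shares below carry exact (Clopper-Pearson) 95% intervals. They reflect counting error alone, and regions side by side count in them as separate.

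In 2iL, inhibition of MEK holds down the FGF and ERK pathway, inhibition of GSK3 stabilises beta-catenin and relieves repression by TCF7L1, and LIF activates STAT3. Together they hold the cells in naive pluripotency, the state of the preimplantation epiblast. Once they are removed, cells in N2B27 pass through a formative state, marked by OTX2 and POU3F1, on the way to the germ layers, and in this medium mostly towards neural ectoderm. Enhancers open and close early in this exit, while the promoters of CpG-rich genes are open in most cell types.

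Promoters whose chromatin was listed as open in 1 of the 2 lists make the classes concrete, and 8 of them are printed here because their genes belong to the pathways and states just named. These 8 were picked after their values were seen. Each sequence is a 300-base window from RefSeq, build GRCm38.p6 (the same assembly as mm10), that runs from 250 bases before a gene's start to 50 after it, written 5′ to 3′ on the gene's strand. Capitals mark matches to 14 short motifs searched on both strands, and a sequence without capitals holds none of them. The first 5 lay in a gained region.
Fabp7, chr10:57784673-57784972, plus strand: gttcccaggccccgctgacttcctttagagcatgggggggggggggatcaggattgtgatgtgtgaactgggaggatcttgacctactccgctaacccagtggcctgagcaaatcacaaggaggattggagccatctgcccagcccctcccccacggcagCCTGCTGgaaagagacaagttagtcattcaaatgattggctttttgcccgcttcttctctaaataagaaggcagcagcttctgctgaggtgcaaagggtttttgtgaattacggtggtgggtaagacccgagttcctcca
Pax6, chr2:105668646-105668945, plus strand: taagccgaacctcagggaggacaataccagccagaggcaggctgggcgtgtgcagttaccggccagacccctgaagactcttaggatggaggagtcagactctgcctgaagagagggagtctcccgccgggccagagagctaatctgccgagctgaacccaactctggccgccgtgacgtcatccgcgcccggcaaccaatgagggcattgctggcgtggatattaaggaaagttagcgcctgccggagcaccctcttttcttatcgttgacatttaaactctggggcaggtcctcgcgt
Msgn1, chr12:11208899-11209198, minus strand: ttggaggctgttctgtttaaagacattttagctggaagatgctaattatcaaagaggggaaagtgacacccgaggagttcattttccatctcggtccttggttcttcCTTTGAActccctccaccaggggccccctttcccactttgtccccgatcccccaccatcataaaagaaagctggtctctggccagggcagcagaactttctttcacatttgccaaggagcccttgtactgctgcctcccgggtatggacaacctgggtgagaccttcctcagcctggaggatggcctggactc
Otx2, chr14:48665060-48665359, minus strand: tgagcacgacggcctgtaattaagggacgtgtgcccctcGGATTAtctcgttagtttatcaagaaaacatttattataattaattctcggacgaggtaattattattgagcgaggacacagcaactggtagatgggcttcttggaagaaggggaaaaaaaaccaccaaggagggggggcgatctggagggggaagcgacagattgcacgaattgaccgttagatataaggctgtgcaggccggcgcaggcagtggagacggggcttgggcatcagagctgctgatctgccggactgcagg
Esrrb, chr12:86360867-86361166, plus strand: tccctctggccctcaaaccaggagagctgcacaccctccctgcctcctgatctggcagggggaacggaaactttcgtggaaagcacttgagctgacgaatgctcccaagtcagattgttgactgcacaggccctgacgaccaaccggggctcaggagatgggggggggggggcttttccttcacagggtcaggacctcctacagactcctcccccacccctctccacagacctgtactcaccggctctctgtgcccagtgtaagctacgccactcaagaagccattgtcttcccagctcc
The next 3 lay in a lost region.
Lif, chr11:4257318-4257617, plus strand: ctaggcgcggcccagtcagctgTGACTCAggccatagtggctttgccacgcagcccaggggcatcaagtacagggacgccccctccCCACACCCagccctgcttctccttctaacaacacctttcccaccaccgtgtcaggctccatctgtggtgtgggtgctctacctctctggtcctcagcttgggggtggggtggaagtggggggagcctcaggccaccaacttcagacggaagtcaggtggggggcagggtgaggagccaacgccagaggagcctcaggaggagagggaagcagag
Pim1, chr17:29492835-29493134, plus strand: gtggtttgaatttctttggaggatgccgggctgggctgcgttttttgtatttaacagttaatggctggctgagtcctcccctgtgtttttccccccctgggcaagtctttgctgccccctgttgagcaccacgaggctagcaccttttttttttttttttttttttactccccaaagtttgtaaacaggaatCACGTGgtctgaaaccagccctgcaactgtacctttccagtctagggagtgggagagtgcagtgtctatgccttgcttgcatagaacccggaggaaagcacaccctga
Nr5a2, chr1:136953581-136953880, minus strand: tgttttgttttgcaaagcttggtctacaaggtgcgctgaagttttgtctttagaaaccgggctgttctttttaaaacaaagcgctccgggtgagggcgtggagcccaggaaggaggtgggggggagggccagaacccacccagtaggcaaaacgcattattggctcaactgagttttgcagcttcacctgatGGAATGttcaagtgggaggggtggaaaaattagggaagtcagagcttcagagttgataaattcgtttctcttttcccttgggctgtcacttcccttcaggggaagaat

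Fabp7 encodes a fatty acid binding protein of radial glia, and its single start in the table lay in a region listed at 48 h with a fold of 9.27 and at 96 h with 12.5. Fold here is the authors' enrichment at the summit over background, and it was used only within its own list. The capitals in Fabp7 are the ZIC motif CAGCAGG read on the opposite strand. Pax6, a regulator of neural and eye development, had 1 of its 2 starts in a gained region with a fold of 5.51 at 48 h, and the other start lay in no region of either list. Msgn1 encodes a transcription factor of the presomitic mesoderm, and its start lay in a gained region with a fold of 8.70 that was not in the 96 h list. Its capitals are the TCF/LEF motif CTTTGAA. Otx2, a homeobox gene of the formative epiblast and forebrain, had 1 of 4 starts in a gained region, at a low fold of 2.55, and the capitals there are the OTX motif TAATCC read on the opposite strand. Esrrb encodes an orphan nuclear receptor of the naive network, and 1 of its 2 starts lay in a gained region with a fold of 3.87, while the other start lay in a shared region. So 1 start of a naive-state gene was listed as open at 48 h and not in 2iL.

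Lif encodes the cytokine that 2iL supplies, and its start lay in a region listed in 2iL with a fold of 4.49 and neither at 48 h nor at 96 h. The capitals in Lif are the AP-1 motif TGANTCA and the KLF motif GGGTGTGG on the opposite strand. Pim1, a kinase gene that STAT3 activates, had 1 of 2 starts in a lost region with a fold of 3.46, and its other start lay in a shared region. The capitals in Pim1 are the E-box CACGTG. Nr5a2, an orphan nuclear receptor gene, had 1 of 2 starts in a lost region with a fold of 3.88, and the other start lay in no region. Its capitals are the TEAD motif CATTCC on the opposite strand. These folds were low beside those of promoters in both lists, whose median was 13.3 at 48 h and 13.1 in 2iL.

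Over the whole genome, 27647 of 88124 regions of the 48 h list were gained, 31.4% (95% interval 31.1% to 31.7%), and 29998 of 90475 regions of the 2iL list were lost, 33.2% (32.8% to 33.5%). The shared regions were 51.2% of all. Few regions lay near the limit of 1 bp. Only 5 shared regions overlapped by less than 50 bp, and 99.9% overlapped by at least 50% of the shorter interval. Just outside the limit, 453 gained regions (1.64%) had an interval of the 2iL list within 100 bp, and 373 lost regions (1.24%) had one of the 48 h list. Within 1000 bp these shares were 16.1% of the gained and 12.8% of the lost regions. The share of regions gained ran from 28.8% on chromosome 17 to 33.2% on chromosome 2 among the autosomes, and the share lost from 28.7% on chromosome 7 to 37.6% on chromosome 1. On chromosome X 32.6% of 48 h regions were gained and 31.4% of 2iL regions were lost.

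Both kinds were most frequent among weak regions. When the 48 h list was cut into 10 equal groups by fold, 58.6% of the weakest group (median fold 3.52) was gained, against 5.79% of the strongest group (median fold 19.3). In the 2iL list 51.3% of the weakest group (median fold 3.83) was lost, and 7.68% of the strongest (median fold 18.7). The stronger 50% of the 48 h list, set against the whole 2iL list, had 11.0% gained (4860 regions), and the stronger 50% of the 2iL list, set against the whole 48 h list, had 16.1% lost (7312 regions). In the strongest of the 10 groups alone, 510 regions were gained and 695 lost. Gained regions had a median width of 510 bp and a median fold of 6.0, and lost regions 581 bp and 6.66. Shared regions were wider and stronger in both lists, with 738 bp and 9.69 at 48 h, and 743 bp and 9.60 in 2iL.

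The 96 h list, which had no part in choosing the regions, held many of the gained and few of the lost ones. Of gained regions 13899 were in the 96 h list, 50.3% (49.7% to 50.9%), while of lost regions 2629 were, 8.76% (8.45% to 9.09%). Of shared regions 78.3% were. Among gained regions the share listed at 96 h depended on strength. It was 41.1% in the weakest group, 36.7% in the next, and 91.6% among the 510 gained regions of the strongest group. Among lost regions it did not follow strength: the share absent at 96 h was between 89.8% and 92.0% in each of the 10 groups. The 96 h list was the shortest of the 3, with 78055 intervals.

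**Figure D1:**
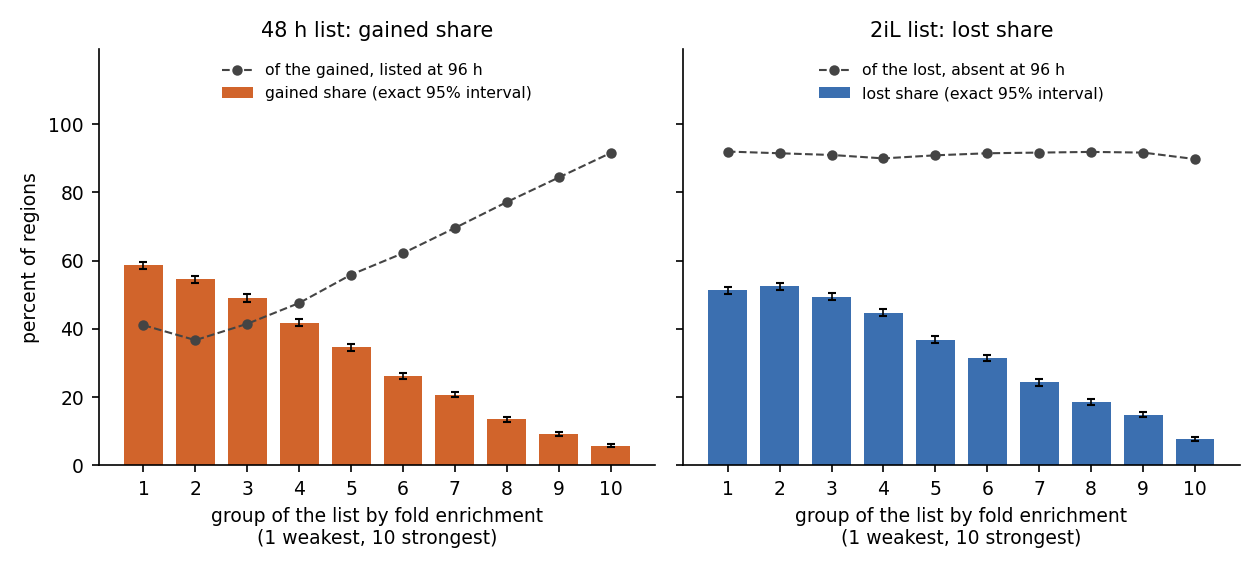
Share of 48 h regions gained (left) and of 2iL regions lost (right) in 10 equal groups of each list by the authors' fold, weakest to strongest, as bars in percent with exact 95% intervals. Dashed lines give, in percent, the gained regions listed at 96 h and the lost regions absent at 96 h. The gained share was 5.79% in the strongest group and 58.6% in the weakest. Of gained regions in the strongest group 91.6% were listed at 96 h, while absence of lost regions at 96 h stayed between 89.8% and 92.0%.

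Where a region was in both lists, its position and width were close to the same in both. Of shared regions 59122 (97.8%) had 1 interval in each list. Their median width was 729 bp at 48 h and 734 bp in 2iL, and the ratio of the widths had a median of 1.01 with quartiles of 0.92 and 1.13. The strongest summits lay a median of 10 bp apart, and in 86.8% within 50 bp. A minority was reshaped: 5709 (9.66%) were over 1.5 times wider at 48 h, 4183 (7.08%) were over 1.5 times wider in 2iL, and in 4693 (7.94%) the strongest summits were over 200 bp apart. Regions of a kind also lay beside each other. Among regions of the 48 h list with the next one within 10 kb, that next region was gained after 33.8% of gained regions (33.0% to 34.6%) and after 30.2% of shared ones (29.6% to 30.7%). In the 2iL list the next region was lost after 39.7% of lost regions (38.9% to 40.5%) and after 29.8% of shared ones (29.3% to 30.3%).

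Gained and lost regions lay away from genes' ends. Within 1 kb of an end of a protein-coding gene, 12.9% of 48 h regions were gained (12.4% to 13.4%) and 7.25% of 2iL regions were lost (6.84% to 7.68%). Farther than 100 kb from any end the shares were 45.3% and 47.3%. The median distance to an end was 19.0 kb for gained, 22.1 kb for lost and 9.55 kb for shared regions. Inside gene bodies and over 1 kb from any end lay 48.2% of gained, 53.3% of lost and 41.2% of shared regions. Regions within 1 kb of an end, left out of these shares, were 7.44% of gained, 3.62% of lost and 23.0% of shared regions.

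At promoters the balance leaned to gain. A promoter counted as lying in a region where its 300-base window overlapped it, and 21263 starts of 17492 genes had a sequence (79.9% of 21887 genes). Of 13821 promoters in a 48 h region, 717 were in a gained region alone, 5.19%, and of 13327 promoters in a 2iL region, 223 were in a lost region alone, 1.67%. They belonged to 647 and 212 genes. At the level of genes, 856 of 14538 genes with a 48 h region within 1 kb of an end had none there in 2iL, 5.89%, and 339 of 14021 genes with such a 2iL region had none at 48 h, 2.42%. Of the promoters in gained regions 70.2% were in a region at 96 h as well, of those in lost regions 16.6%, and of those in shared regions 98.0%.

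The promoters of these classes differed in base composition. The median count of CpG dinucleotides in the 300-base window was 8 for gained and 5 for lost promoters, against 21 for promoters in both lists and 3 for promoters in neither. Median GC content was 56.3%, 52.0%, 62.0% and 46.0% in the same order. At most 3 CpG were found in 19.4% of gained promoters (16.6% to 22.5%) and in 34.5% of lost ones (28.3% to 41.2%), with 2.27% of promoters in both lists and 63.3% of those in neither. Thus both changing classes lay between the CpG-rich promoters listed at both times and the CpG-poor ones listed at neither, and the interval of the gained class did not overlap that of the lost class.

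**Figure D2:**
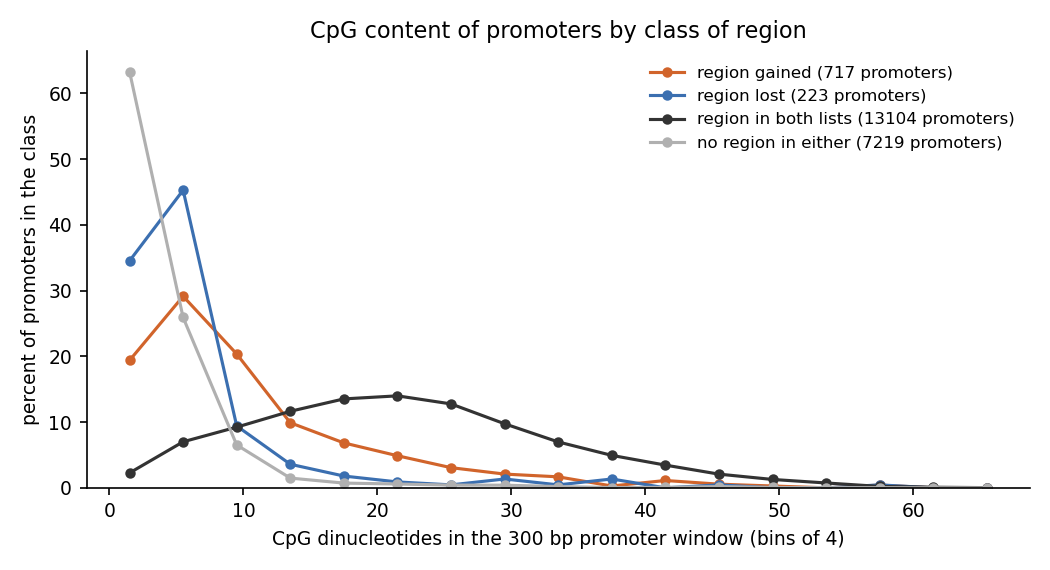
Distribution of CpG dinucleotides in 300 bp promoter windows for promoters in a gained region (717), in a lost region (223), in both lists (13104) and in neither (7219). The x axis is the CpG count in bins of 4 and the y axis the percent of promoters of the class, and the gained and lost classes peak at 4 to 7 CpG while promoters in both lists have a median of 21.

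Of the 14 motifs searched, a few had shares in the gained or lost promoters whose intervals lay apart from the share over all 21263 promoters. A match is a run of letters and not a bound site, and the classes differ in GC content, whose part in the shares was not tested. The ZIC motif CAGCAGG, a core bound by ZIC zinc-finger factors, was in 17.3% of gained promoters (14.6% to 20.3%) and 13.9% of lost ones (9.64% to 19.1%), with 10.5% of all promoters and 9.68% of those in neither list. The KLF motif GGGTGTGG was in 4.32% of gained promoters (2.96% to 6.08%) and 7.62% of lost ones (4.50% to 11.9%), with 3.63% of all. The AP-1 motif TGANTCA was in 8.23% and 11.7%, with 6.99% of all, and in 11.5% of promoters in neither list. The TEAD motif CATTCC was in 16.6% of gained promoters and 20.6% of lost ones, with 13.6% of all and 17.3% of those in neither list. The ETS motif CCGGAAGT, common in CpG-rich promoters, was in 3.21% of gained promoters (2.04% to 4.77%) and 0.448% of lost ones (0.0114% to 2.47%), with 5.15% of all and 7.86% of those in both lists. The NRF1 motif GCGCATGCG was in 0.558% and 0.897%, with 2.35% of all. The OTX motif TAATCC was in 7.39% of gained and 5.38% of lost promoters, with 6.42% of all. The TCF/LEF motif CTTTGAA was in 4.74% and 6.28%, with 4.54% of all, and the octamer ATGCAAAT of POU factors in 1.12% and 2.69%, with 1.66% of all. For OTX, TCF/LEF and the octamer the intervals of both classes held the share over all promoters. No motif's letters contain those of another.

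The strongest regions near genes' ends were mostly at genes outside the pluripotency network. Among gained regions within 1 kb of an end the highest folds were 24.8 at C030002A05Rik, 23.0 at Armc4, 21.2 at Gpr165, 20.5 at 1700028K03Rik and 20.1 at Pamr1, and all of these except that of 1700028K03Rik were listed at 96 h. Gpr165 encodes an orphan G protein-coupled receptor. Among lost regions the highest folds were 23.7 at Ang2, 19.4 at 4931408C20Rik, 18.2 at Kctd4, 17.5 at Gin1 and 17.3 at Thap12, and none of these was listed at 96 h. Away from gene ends the strongest gained region of all lay 29.3 kb from Itgb8, with a fold of 29.0, and the strongest lost region 8.93 kb from Ahcyl2, with 28.9.

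For the accounts by gene, each region was placed at whichever protein-coding gene had the closest end, up to 100 kb away, which placed 103573 regions (87.7%) at 18067 genes. The gene so assigned need not be the one a region acts on. Over all placed regions 29.6% of 48 h regions were gained and 31.4% of 2iL regions were lost. More gained than lost regions were found at 6056 of 18067 genes, 33.5%, and more lost than gained at 6070 genes, 33.6%. The 20 gene lists described next are read against those shares. Some genes belong to several lists. Where every gene end within 50 kb was counted, no share over all regions was at hand to set beside a list.

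**Figure D3:**
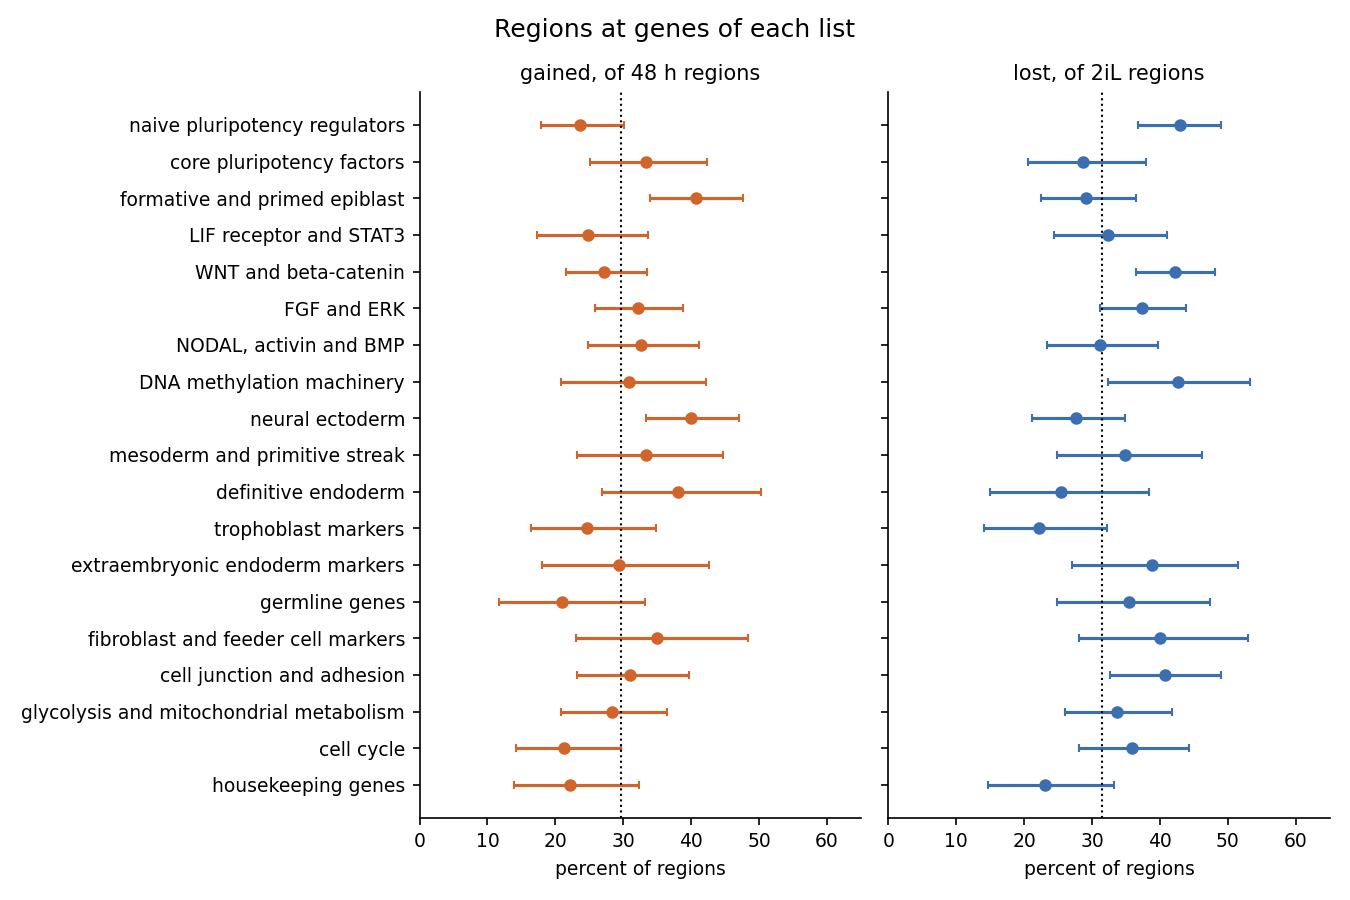
Percent of 48 h regions gained (left) and of 2iL regions lost (right) at the genes of 19 of the 20 lists, as points with exact 95% intervals. Dotted lines mark all placed regions, 29.6% gained and 31.4% lost. Some genes belong to several lists. The 2-cell-like list, with 7 regions at 48 h and 12 in 2iL, is not drawn. Its gained share was 42.9% (9.90% to 81.6%). Its lost share was 66.7% (34.9% to 90.1%), an interval that also lies above the line. The whole intervals of formative and primed epiblast and of neural ectoderm lie above the line among gained shares, and those of naive pluripotency, WNT, DNA methylation and cell junction lie above it among lost shares.

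Genes of the naive pluripotency network carried more lost than gained regions. At its 20 genes 47 of 199 regions of the 48 h list were gained, 23.6% (17.9% to 30.1%), and 114 of 266 regions of the 2iL list were lost, 42.9% (36.8% to 49.0%). Lost regions outnumbered gained ones at 13 of the 20 genes and the reverse held at 2. Tfcp2l1, which encodes a CP2-family factor of the naive network, had 6 regions at 48 h and 16 in 2iL, with 10 lost and 0 gained. The lost ones ran from 1.25 kb before the lower end of the gene to 113.3 kb past it, with folds between 3.10 and 9.0 in 2iL, and 2 of the 10 were listed again at 96 h. Klf4, a Krüppel-like factor that LIF and STAT3 induce, had 6 regions at 48 h and 14 in 2iL, with 8 lost. The strongest of those, at chr4:55583301-55584212, had a fold of 21.4, and the other 7 had folds up to 9.14. None of the 8 was listed at 96 h. The regions at the Klf4 gene itself, with folds of 8.03 and 4.99 at 48 h and of 4.21 and 5.50 in 2iL, were shared.

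Nanog, a homeodomain factor of the naive and core networks, had 6 regions at 48 h, all shared, and 9 in 2iL (net 0 in the stronger 50% of both lists). Its 3 lost regions included one 20.6 kb below the gene with a fold of 10.1. Prdm14, a repressor of DNA methylation genes and of FGF signalling, had 10 regions at 48 h and 15 in 2iL, with 5 lost and 0 gained. Zfp42, a zinc-finger marker gene of naive cells, had 1 gained and 4 lost regions beside 10 shared ones, and only 2 of its regions were listed at 96 h. Gained and lost regions were equal in number at 5 of the 20 genes. Esrrb, one of these, had 10 gained and 10 lost regions beside 18 shared (net −6 in the stronger 50% of both lists), spread through and around its gene body, and 7 of the 10 gained but 0 of the 10 lost were listed at 96 h. Its gained regions had folds from 3.87 to 9.03 and its lost regions from 2.56 to 11.4. Among naive genes outside the naming rule, picked after their values were seen, Tbx3 had 4 gained and 13 lost regions, Nr5a2 7 and 13, and Klf5 2 and 10.

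**Figure D4:**
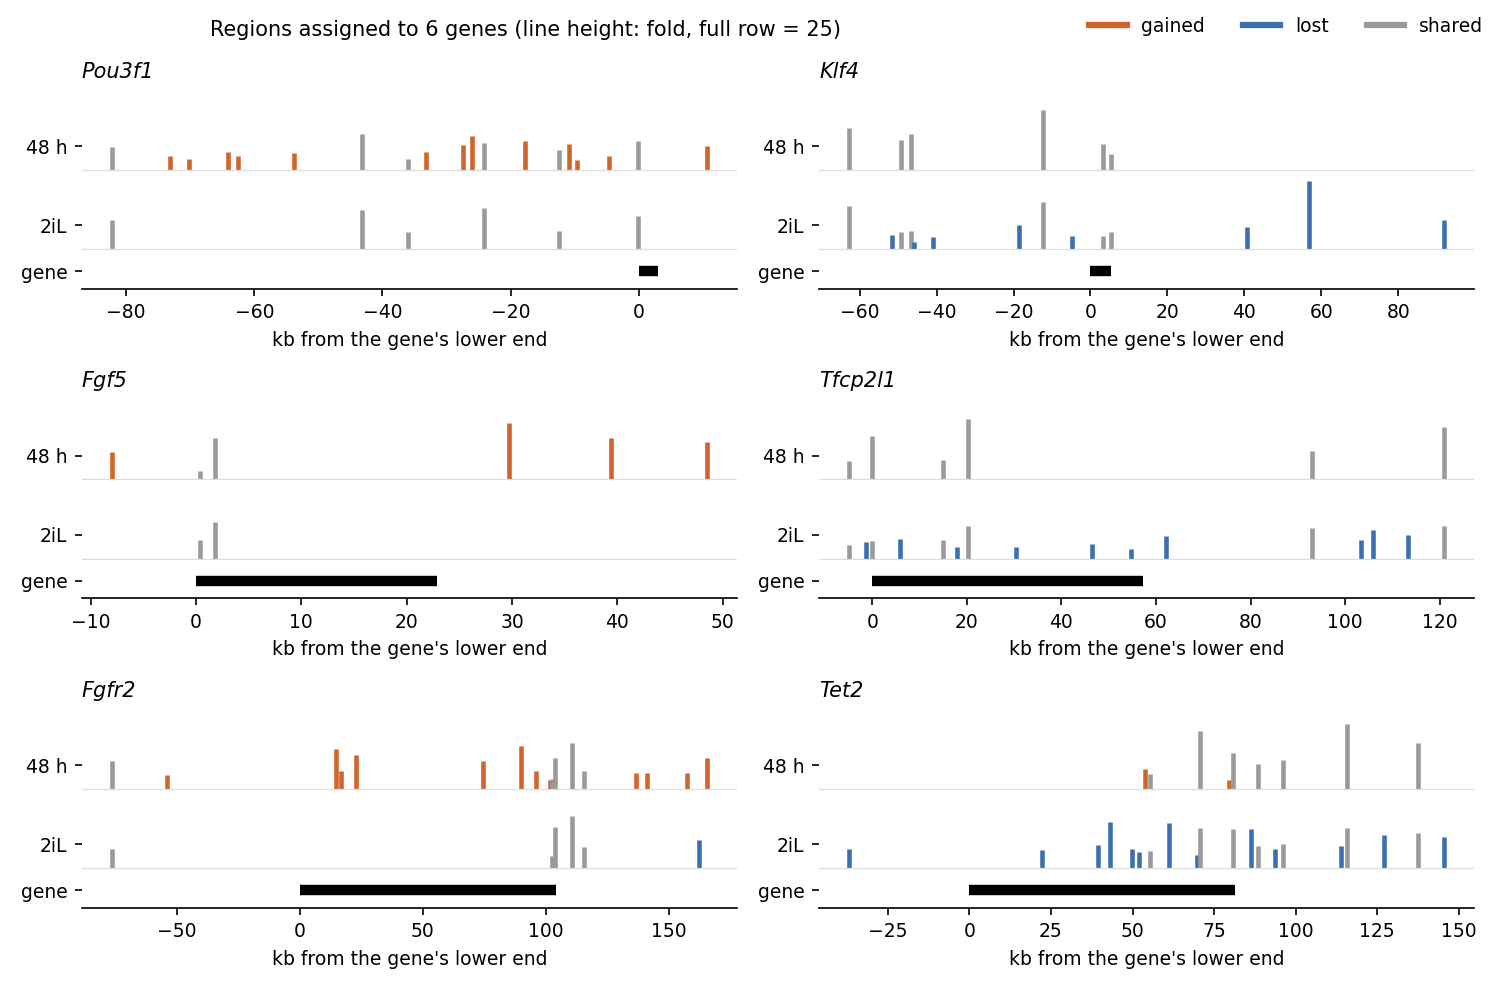
Regions placed at Pou3f1, Fgf5, Fgfr2, Klf4, Tfcp2l1 and Tet2, drawn by distance in kb from the gene's lower end, with the 48 h list above the 2iL list and the gene as a black bar. Line height is the authors' fold, with a full row at 25. Orange lines are gained, blue lost and grey shared, and Pou3f1 shows 13 gained and 0 lost regions while Tfcp2l1 shows 0 gained and 10 lost.

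The core pluripotency list, of genes used in both states, lay near the background, with 41 of 123 regions gained, 33.3% (25.1% to 42.4%), and 33 of 115 lost, 28.7% (20.6% to 37.9%). Pou5f1, which encodes OCT4, had 5 regions at 48 h and 4 in 2iL, 3 of them shared, and 2 gained with folds of 2.47 and 6.59. Sox2 had 25 regions at 48 h and 21 in 2iL, with 17 shared, 8 gained and 4 lost. The strongest shared region at Sox2, 73.6 kb below the gene, had a fold of 23.6 at 48 h and 24.5 in 2iL. The 4 lost regions lay together, between 50.5 and 66.7 kb above the lower end. All 3 defining markers of embryonic stem cells, Pou5f1, Sox2 and Nanog, had regions shared between 48 h and 2iL. This does not set them apart, since 51.2% of all regions were shared. The lineage genes Pax6 and Foxa2 had 7 and 11 shared regions. Zfp281, a zinc-finger factor needed to leave the naive state, had 7 gained and 3 lost regions. Foxd3 went the other way, with 2 gained and 9 lost. With the stronger 50% of both lists alone, gained minus lost was −2 at Pou5f1, the opposite sign of that with all regions. In the same setting it was 0 at Zfp281 and −1 at Foxd3.

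Genes of the formative and primed epiblast carried more gained regions than the background, 85 of 209 at 48 h, 40.7% (33.9% to 47.7%), while 51 of 175 2iL regions were lost, 29.1% (22.5% to 36.5%). Gained regions outnumbered lost ones at 12 of 21 genes and the reverse held at 7. Pou3f1, which encodes the POU factor OCT6, had 19 regions at 48 h and 6 in 2iL, with 13 gained and 0 lost. The gained regions of Pou3f1 ran from 73.2 kb below the gene to 10.6 kb above its lower end. The strongest of them, 25.9 kb below, had a fold of 10.8, and 8 of the 13 were listed at 96 h. The region at the start of Pou3f1 was shared, with folds of 9.21 at 48 h and 10.3 in 2iL. So at this gene the promoter was listed in both and the gains lay outside it.

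Fgf5, a growth factor gene of the formative epiblast, showed the same arrangement. Its 2 regions within the gene near its start were shared, while 3 gained regions lay 29.7, 39.5 and 48.5 kb above its lower end with folds of 17.8, 13.1 and 11.8, and another lay 8.01 kb below with 8.52. Of the 4, the regions with 17.8 and 13.1 were listed at 96 h. Otx2 had 13 regions at 48 h and 8 in 2iL, with 6 gained and 1 lost. The strongest gained region, 66.2 kb above its lower end, had a fold of 13.9. Grhl2, a Grainyhead factor that opens epithelial enhancers in epiblast cells, had 31 regions at 48 h and 22 in 2iL. Its 14 gained regions had folds from 2.69 to 14.0, and 7 of them were listed at 96 h, against 0 of its 5 lost ones. Some genes of this list leaned to loss: Cdh2, which encodes N-cadherin, had 2 gained and 6 lost regions, and Myc 3 and 8 (net 2 with the nearest end within 20 kb). Nodal had 0 gained and 1 lost, beside 5 shared.

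**Figure D5:**
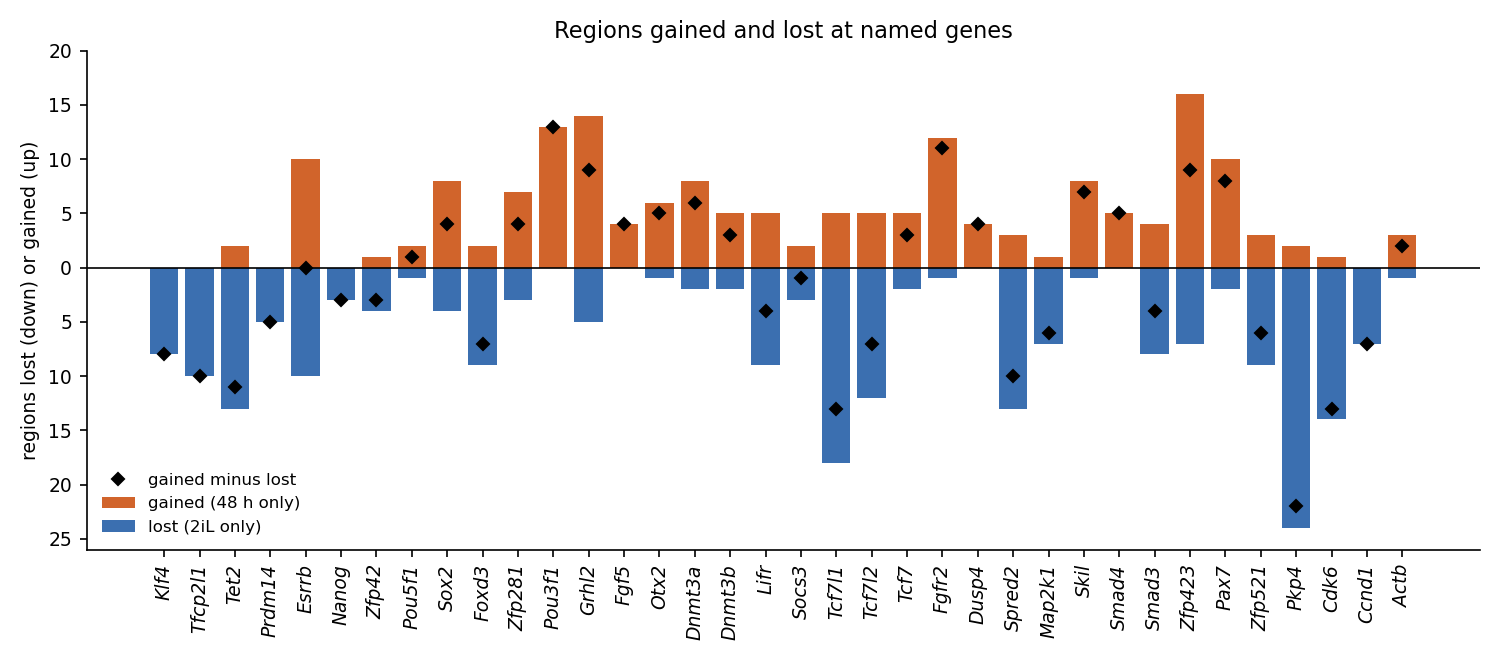
Regions gained (orange, upward) and lost (blue, downward) at named genes, with the difference, gained minus lost, as a black diamond. The y axis counts regions, and the genes are a selection of those named in the text. The tallest bars are 16 gained at Zfp423 and 24 lost at Pkp4, and Pou3f1 has 13 gained and 0 lost.

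The LIF and STAT3 pathway, whose ligand was withdrawn, had 29 of 117 regions gained, 24.8% (17.3% to 33.6%), and 42 of 130 lost, 32.3% (24.4% to 41.1%). This lost share lay near the 31.4% of all placed 2iL regions. It was 24.2% with every gene end within 50 kb counted, a setting without a share over all regions. In the stronger 50% of both lists it was 23.7%, where 30.9% of all 2iL regions were lost. Lost regions outnumbered gained ones at 10 of its 18 genes and the reverse held at 6. The receptor chains stood among the 10. Lifr, which binds LIF, had 5 gained and 9 lost regions (net 0 with the nearest end within 20 kb), and Il6st, which encodes the shared chain gp130, had 0 gained and 4 lost, with lost folds from 5.40 to 9.66. At Lifr the region within 1 kb of its lower end was lost, with a fold of 7.63 in 2iL, and was listed again at 96 h. Neither of the 2 starts of Lifr with a promoter sequence lay in a lost region. One of them, inside the gene, lay in a gained region with a fold of 6.96 at 48 h, and the other was listed at both times. Lif itself had no region within 1 kb of an end at 48 h, as its lost promoter printed above shows. Socs3, the feedback inhibitor that STAT3 induces, had 2 gained, 3 lost and 8 shared regions.

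The WNT and beta-catenin list, which CHIR99021 acts on, had 62 of 228 regions gained, 27.2% (21.5% to 33.5%), and 121 of 287 lost, 42.2% (36.4% to 48.1%). Lost regions outnumbered gained ones at 17 of 24 genes. The lost share was 33.7% with every gene end within 50 kb counted, a setting without a share over all regions. Counting only regions within 20 kb of an end, the lost share was 29.4% and the gained share 21.2%, beside 26.6% lost and 26.4% gained over all such regions, so within 20 kb the lost share of this list stood nearer the background than it did over all placed regions. The TCF factors, which bind beta-catenin at DNA, did not move as a group. Tcf7l1, the repressor of the naive network, had 5 gained and 18 lost regions and Tcf7l2 had 5 and 12. With the nearest end within 20 kb the net was −2 at both of these. Tcf7 had 5 and 2 (net −1 in the stronger 50% of both lists) and Lef1 had 9 and 10. The lost regions of Tcf7l1 lay mostly inside its gene, with folds from 2.84 to 10.5, and 6 of the 18 were listed at 96 h. Among receptors Fzd7 had 4 gained regions and 1 lost. Axin2, a feedback target of the pathway, had 5 gained and 6 lost beside 11 shared, too near to even to give a direction, and the target Ccnd1, which encodes cyclin D1, had 0 gained and 7 lost.

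The FGF and ERK list, which PD0325901 acts on, had 69 of 215 regions gained, 32.1% (25.9% to 38.8%), and 87 of 233 lost, 37.3% (31.1% to 43.9%), but its genes spread widely. Within 20 kb of an end its lost share was 30.2%, beside 26.6% of all such 2iL regions. At the receptor gene Fgfr2 17 regions were listed at 48 h and 6 in 2iL, with 12 gained and 1 lost. Of the 12 gained regions of Fgfr2, 7 lay inside the gene, the strongest with a fold of 13.6, and 9 were listed at 96 h. Dusp4, a phosphatase gene that ERK induces, had 4 gained regions and 0 lost, with folds of 15.5, 11.9, 19.5 and 2.96. Spry4, an inhibitor of the pathway that ERK induces, had 3 gained and 1 lost, and Dusp6, another ERK-induced phosphatase gene, had 3 and 4 (net 2 with the nearest end within 20 kb). On the side of loss, Spred2, an inhibitor of RAS signalling, had 3 gained and 13 lost, all 13 inside the gene (net −1 with the nearest end within 20 kb). Map2k1, which encodes the kinase MEK1, had 1 gained and 7 lost. Lost outnumbered gained at 17 of the 26 genes. All 26 had a region within 1 kb of an end in both lists.

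The NODAL, activin and BMP list lay near the background, with 44 of 135 gained, 32.6%, and 41 of 132 lost, 31.1%. Its lost share was 19.5% within 20 kb of an end, beside 26.6% of all such 2iL regions. Its SMAD genes differed. Smad4, the partner of all receptor-activated SMADs, had 5 gained and 0 lost regions, the strongest with a fold of 14.0 (net 1 in the stronger 50% of both lists). Skil, which encodes the SMAD corepressor SNON, had 8 gained and 1 lost (net 1 in the stronger 50% of both lists). Folds of its gained regions ran from 1.88 to 6.46. Smad3, a signal carrier of NODAL and activin, had 4 gained and 8 lost (net 0 with the nearest end within 20 kb), and Smad7, the inhibitory SMAD, 4 and 9. Lefty1, a NODAL antagonist gene, had 1 gained region with a fold of 2.19. The DNA methylation list had 24 of 78 regions gained, 30.8% (20.8% to 42.2%), and 40 of 94 lost, 42.6% (32.4% to 53.2%), and its genes differed, with more gained regions at 3 and more lost at 6 of the 12. The lost share was 31.2% with every gene end within 50 kb counted, a setting without a share over all regions. In the stronger 50% of both lists it was 31.7%, where 30.9% of all 2iL regions were lost. The de novo methyltransferase genes Dnmt3a and Dnmt3b had 8 gained and 2 lost, and 5 gained and 2 lost regions, and their cofactor Dnmt3l had 1 and 0. Tet2, whose product oxidises methylcytosine, had 2 gained and 13 lost (net −2 with the nearest end within 20 kb). Its lost regions had folds from 4.27 to 14.5 and none of the 13 was listed at 96 h. Tet2 and Prdm14, with 13 and 5 lost regions, belong to the naive list too. The lost shares of these 2 lists are therefore not separate results. Among other members, picked after their values were seen, the maintenance methyltransferase gene Dnmt1 had 0 gained and 4 lost, Tet1 5 and 8, and Tet3 3 and 3. Of the gained regions of Dnmt3b 0 were listed at 96 h, and 4 of those 5 had folds under 4.

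Among genes of later lineages, neural ectoderm had a gained share of 40.0% (84 of 210 regions, 33.3% to 47.0%) and a lost share of 27.6% (48 of 174, 21.1% to 34.9%). Gained regions outnumbered lost ones at 14 of 22 genes. Within 20 kb of an end the lost share was 16.2%, beside 26.6% of all such 2iL regions. Zfp423, a zinc-finger gene of neural progenitors, had 16 gained and 7 lost regions, and Pax7 10 and 2, while Zfp521 had 3 and 9. One start of Zfp423 lay in a lost region with a fold of 5.41 in 2iL. Pax6, whose promoter is printed above and which was picked after its values were seen, had 7 gained and 2 lost. Definitive endoderm had 27 of 71 regions gained, 38.0% (26.8% to 50.3%), and 15 of 59 lost, 25.4% (15.0% to 38.4%). Within it Gata4 had 5 gained and 1 lost regions and Foxa2 4 and 1. Mesoderm and primitive streak had 27 of 81 gained, 33.3%, and 29 of 83 lost, 34.9%. Gained regions outnumbered lost ones at 8 of its 16 genes, by 1 region at most, and the reverse held at 3, among them Kdr (1 gained and 6 lost) and Gsc (4 and 7). In the stronger 50% of both lists gained minus lost was 0 at Kdr and at Gsc.

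Markers of cells that a culture might also hold went in both directions within each list. The same was true of all 20 lists, so this does not tell whether such cells were present. Trophoblast markers had 23 of 93 regions gained, 24.7%, and 20 of 90 lost, 22.2%, beside 29.6% and 31.4% over all placed regions. Gata3 and Esx1 had 3 gained and 0 lost each, Elf5 0 and 3, and Tfap2c, which germ cells and naive cells express too, 2 and 10. Extraembryonic endoderm markers had 17 of 58 gained, 29.3%, and 26 of 67 lost, 38.8%, with Gata6 at 3 and 0, Lama1 at 1 and 6, and Ttr at 0 and 3. Fibroblast and feeder cell markers had 21 of 60 gained and 26 of 65 lost (18.8% lost within 20 kb of an end, 40.0% in all), with Fbln2 at 6 and 3 and Fn1 at 2 and 8. At genes of the 2-cell-like state there were 7 regions at 48 h, 3 of them gained, and 12 in 2iL, 8 of them lost, 66.7% (34.9% to 90.1%). Zfp352 accounted for 5 of the 8 lost there and had 0 at 48 h. Zscan4c, Zscan4d and Tcstv1 had 0 at 48 h and 1 each in 2iL. Going the other way, Eif1a had 2 gained and 0 lost, and Tdpoz4 1 and 0. Tcstv3 had 1 shared region, and Zscan4f and Usp17lc had none in either list. Open regions at a marker gene do not show that it was transcribed, and the part of other cells in the results was not tested. Germline genes had 13 of 62 gained and 27 of 76 lost, with Dazl at 0 and 3 (net 0 with the nearest end within 20 kb).

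Lists of general cell functions served as a contrast. Housekeeping genes had 19 of 86 regions gained, 22.1%, and 20 of 87 lost, 23.0%, and Actb had 3 gained, 1 lost and 6 shared. Cell cycle genes had 25 of 118 gained, 21.2%, and 52 of 145 lost, 35.9%, of which Cdk6, a G1 kinase gene, held 14 lost with 1 gained. The cell cycle lost share was 25.3% within 20 kb of an end, beside 26.6% of all such 2iL regions. It was 26.5% with every gene end within 50 kb counted, a setting without a share over all regions. Ccnd2, which encodes cyclin D2, had 5 gained and 1 lost, against 0 and 7 at Ccnd1. Glycolysis and mitochondrial metabolism had 39 of 138 gained and 50 of 149 lost. Within it the glucose transporter gene Slc2a1 had 5 gained and 1 lost, while Hk2 and Pfkp, which encode glycolytic kinases, had 4 and 11, and 1 and 9. Cell junction and adhesion genes had 40 of 129 gained and 61 of 150 lost, 40.7%. Their lost share was 31.5% within 20 kb of an end, beside 26.6% of all such 2iL regions. It was 31.6% with every gene end within 50 kb counted, a setting without a share over all regions. Pkp4, a plakophilin gene, held 24 of the 61 lost with 2 gained, and Itgav 6 lost with 0 gained. Cdh1, which encodes E-cadherin, had 4 gained and 4 lost, Tjp1 6 and 3, and Esrp1 4 and 0.

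Across all protein-coding genes the widest margins of gain were at Mvb12b (22 gained and 6 lost), Lmx1b (15 and 0), Zfp608 (15 and 1), Rbm19 (14 and 0) and Pou3f1 (13 and 0). Lmx1b encodes a LIM homeodomain factor of the midbrain and roof plate, and it neighbours Mvb12b on chromosome 2. Its 15 gained regions ran from 33.1 kb below the gene to 121.5 kb above its lower end, with folds from 2.42 to 11.2, and 12 of them were listed at 96 h. At Zfp608 the strongest gained region, inside the gene, had a fold of 21.2, and 9 of 15 were listed at 96 h. The widest margins of loss were at Pkp4 (2 gained and 24 lost), Rai14 (1 and 21), Map4k3 (5 and 22), Zfp704 (3 and 19) and Etv6 (1 and 17). All 10 margins were smaller when only regions within 20 kb of an end were counted: gained minus lost was 2 at Mvb12b, 8 at Lmx1b, 5 at Zfp608, 4 at Rbm19 and 5 at Pou3f1, and −4 at Pkp4, −2 at Rai14, −4 at Map4k3, −8 at Zfp704 and −5 at Etv6. Rai14 encodes an actin-binding ankyrin-repeat protein. Of its 21 lost regions 14 lay inside the gene, their folds ran from 3.68 to 12.3, and 0 were listed at 96 h. Some genes had regions in a single list. Col6a3, a collagen gene, had 6 regions at 48 h and none in 2iL, the strongest with a fold of 18.6, and 5 of the 6 were listed at 96 h. Nyap2 and Mylk3 had 5 and 0, and 4933402D24Rik and Arhgef38 had 4 and 0. In the other direction Zfp352 had 0 regions at 48 h and 5 in 2iL, Fgf7 and Gm12169 had 0 and 4, and 4931408C20Rik and 1700034J05Rik had 0 and 3 (net 0 at 1700034J05Rik with the nearest gene body).

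The microRNA clusters of pluripotent cells were open at both times. The Mir290 cluster (chr7:3218626-3220841) is the main cluster of naive cells and the Mir302 cluster (chr3:127545228-127545807) that of primed cells. Mature products of both share the seed AAGUGCU at bases 2 to 8, here in capitals, which lets them bind the same targets.
miR-294-3p: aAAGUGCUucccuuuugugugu
miR-302b-3p: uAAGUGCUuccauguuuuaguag
Within 20 kb of the Mir302 cluster lay 5 regions at 48 h and 4 in 2iL. All 4 of the 2iL regions were shared, and the 1 gained region, 8.29 kb away, was weak, with a fold of 4.70 at 48 h, and was not listed at 96 h. The shared region at the start of the Mir302 cluster had folds of 12.5 at 48 h and 12.9 in 2iL. Within 20 kb of the Mir290 cluster lay 8 regions at 48 h, all shared, and 11 in 2iL. The 3 lost regions of Mir290 had folds of 3.52, 2.47 and 6.74 in 2iL, 1 of them inside the cluster, and 0 of them were listed at 96 h.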

How the data were processed

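ATAC-seq libraries came from nuclei of live E14 cells, with fragments selected by size on a gel, per the labels' protocols. Build mm10 and the tools Picard, SAMtools, BWA and bcl2fastq 2.20.0.422 are named in the submitters' processing notes, without roles. Not given in the sources used here are the peak caller, its limits and any shift of reads for the transposase, each of which could change which weak regions are listed. The authors deposited 1 peak list per group for both samples together. The authors' fold at a summit is a linear ratio. The p that the authors deposited is a −log10 value. Each interval has a score, as the authors gave it, and each line a summit offset. These values ranked or filtered regions within their own list only.

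Intervals were merged at 1 bp of overlap, and where an interval held several summits, the one with the top −log10 p in its list stood for it. Gene positions, promoters and microRNAs came from RefSeq tables of GRCm38.p6 without strand for genes, so distances are to the nearer end and parts of genes were not separated. Of 327 entries in 20 gene lists 326 matched. The regions and lists were chosen with earlier results of these data known. Named genes were those of a rule. From each list it took the 2 with the largest net gain and the 2 with the largest net loss, each of 3 or more. It also took 5 of each kind over all genes, the 5 gained and 5 lost regions of highest fold within 1 kb of an end, and 22 fixed genes. Outside the rule, the genes nearest the strongest regions of all and every matched 2-cell-like gene were named. Others are marked as picked later. The values of 1 gene that the rule named are not reported here, and its regions stay in the totals. Merging and counting were tested on simulated data. Python 3.11.15, pandas 2.3.3, numpy 2.4.6, scipy 1.17.1 and matplotlib 3.10.9 were used. Alternatives were a summit distance, a larger overlap, unmerged intervals, lists of equal length, the stronger 50% of the lists, and 3 other ways to place regions at genes.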

Additional observations from a re-analysis of the deposited data

How the results depend on the processing

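No paired analysis was possible because each group had 1 peak list for both of its samples, and for the same reason no replicate could be left out. The share of 48 h regions gained and of 2iL regions lost was 32.2% and 34.1% when a summit of the other list within 150 bp decided, and 32.1% and 32.1% with lists cut to equal length. It was 29.0% and 30.9% in the stronger 50% of both lists, and 11.0% and 16.1% when the stronger 50% of 1 list was set against the whole other list. The last setting uses strong regions only, which were gained or lost less often. A larger overlap or unmerged intervals moved both by less than their counting intervals. At naive genes the stronger 50% of both lists gave 30.7% gained and 50.4% lost. Of 160 values of the gene lists 137 stayed within their counting interval and 23 moved. The net of gained minus lost regions turned its sign at 15 of 356 values of named genes, and at 149 others it moved by over 1.5 times or to or from 0. With the nearest end within 20 kb the net moved at 55 genes, turned at 4 and stayed at 30. In the stronger 50% of both lists these numbers were 63, 7 and 19. A gene named above without such a value beside it may have moved as well. In the stronger 50% of both lists the net was −2 at Pou5f1, 1 at Axin2, −1 at Actb, −1 at Tcf7, −1 at Fbln2, 1 at Fn1 and −1 at Slc2a1. With every gene end within 50 kb it was 1 at Socs3, 1 at Nodal, −4 at Lefty1 and −1 at Gata4. With the nearest end within 20 kb it was 2 at Dusp6, 2 at Myc, 1 at Zfp521 and −1 at Tjp1. The cause of these turns was not tested. No count of reads per region was at hand, so a region just under the authors' limit cannot be told from one that was closed.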
